A study of Gorilla gorilla gorilla with 13 samples.

Results

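Gene expression of cells sorted as basal intermediate progenitors (bIP) was compared with that of cells sorted as basal radial glia (bRG) from gorilla cerebral organoids, stem-cell-derived cultures that form brain-like tissue. Every library with either label entered the comparison, 3 of bIP and 4 of bRG, which are 7 of the 13 libraries of the series. The cells of both populations were derived from a single iPSC line, GC1, and no treatment or genetic change is given for either. Organoids were collected at week 8, give or take 3 days, and each library was made by a Smart-seq2 protocol from the RNA of 10000 sorted cells. The other libraries, 4 of apical radial glia (aRG) and 2 of BCL11B+ neurons (N), shared the estimate of the spread and give levels for context. The sources used here do not name the antigens that set bIP apart from bRG in the sort. Whether libraries of 1 population stem from separate cultures is not labelled, and the p-values therefore reflect only the spread among these libraries, which may be technical.

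Radial glia serve as the stem cells of cortical development. Apical ones line the ventricle, and basal ones, also called outer radial glia, have left it but keep a long basal fibre, the stem cell factors PAX6 and SOX2, and the capacity to divide many times. Intermediate progenitors are their committed daughters, which switch on the T-box factor EOMES, give up the radial fibre, divide few times and produce glutamatergic neurons. In the textbook order of the lineage PAX6 is followed by EOMES and NEUROG2, then by NEUROD1, and then by TBR1 in the young neuron.

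The bIP libraries held 6181720 to 10812093 counts in the hg38 table and the bRG libraries 5464721 to 10551184. Levels are given as CPM, counts that edgeR adjusted for library total with TMM factors, and differences as log2 fold changes of bIP over bRG, where 1.00 is a doubling. A gene is called where its Benjamini-Hochberg adjusted p from edgeR's quasi-likelihood test is under 0.05. The library bRG 3 stood apart from the rest: it lay at -67.7 on the second principal component, on which the other 12 libraries lay between -6.58 and 18.3. MALAT1, a nuclear noncoding RNA, took 21.3% of its gorGor6 counts, against 6.35% to 10.8% of those of the other libraries. Counts of calls are therefore also given without bRG 3.

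The marker genes of the 2 populations did not all follow the labels. PAX6, the homeobox factor of radial glia, measured 17.8, 16.2 and 20.1 CPM in the bIP libraries and 713, 598, 1088 and 673 CPM in the bRG libraries. GLI3, the Hedgehog effector that radial glia express, stood at 22.2, 30.1 and 24.3 CPM in bIP and 516, 506, 821 and 544 CPM in bRG. The groups lay far apart in both genes, and both fell in bIP (PAX6 by 5.41 and GLI3 by 4.54 on the log2 scale, edgeR adjusted p = 3.28e-08 and 3.28e-08). NEUROD1, a bHLH factor that follows EOMES in the lineage, was at 95, 78.6 and 59.4 CPM in bIP and 11.3, 21.1, 27 and 12.6 CPM in bRG and rose (log2 fold change 2.11 ± 0.411 SE, adjusted p = 0.00143 by edgeR).

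EOMES, the defining marker of intermediate progenitors, went against the labels. It measured 98.2, 127 and 31 CPM in the libraries labelled bIP and 427, 320.4, 459.6 and 259.8 CPM in the libraries labelled bRG, with no overlap and the lowest value in bIP 3 (log2 fold change -2.11 ± 0.498 SE, adjusted p = 0.00617 by edgeR). The aRG libraries lay at 39.9 to 245 CPM and the neuron libraries at 6.74 and 5.78 CPM, so that EOMES was above the neurons in the libraries labelled bIP (3.77 on the log2 scale against N, edgeR adjusted p = 0.0333). TBR1, the T-box factor of postmitotic deep-layer neurons, was higher in bIP and N than in bRG, at 335, 375 and 236 CPM in bIP, 55.7, 43.5, 44.4 and 23.5 CPM in bRG and 411 and 325 CPM in N. Of the 4 markers, PAX6, GLI3 and NEUROD1 thus followed the labels and EOMES did not. PAX6 and GLI3 were not called between bIP and N, so their low level does not tell bIP from neurons. On the first principal component (67.2% of the variance) bIP lay at -50.8 to -50.4, N at -66.6 and -64.9, and bRG at 17.9 to 40.1. The name bIP is used here as the label of these libraries.

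**Figure D1:**
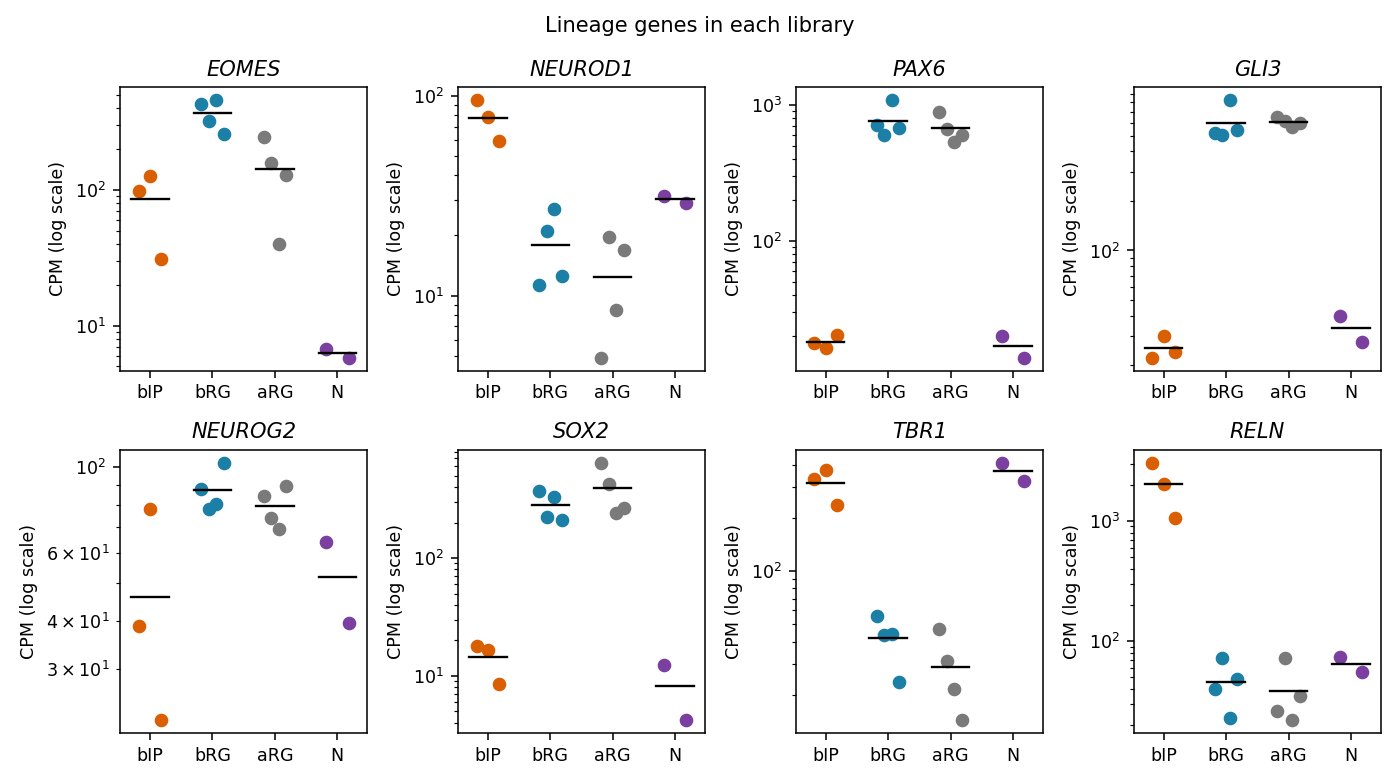
Level of 8 lineage genes in every library, in CPM on a log axis that differs between panels. Each point is a library, with bIP (3) left of bRG (4), then aRG (4) and N (2), and the line is the mean of the group. PAX6 and GLI3 sit far lower in bIP than in bRG, NEUROD1, TBR1 and RELN higher, and EOMES lower.

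In all, 2804 of the 16804 genes tested were called between bIP and bRG, which is 16.7%. Of these 1386 were higher in bIP (8.25% of the genes tested) and 1418 lower (8.44%). The median log2 fold change over all genes tested was -0.09, and it stayed between -0.11 and -0.03 under every alternative scaling, table, test and omitted library tried. The genes called higher in bIP held 19.1% to 19.6% of the counts of the bIP libraries and 5.01% to 8.56% of those of the bRG libraries. The genes called lower held 5.29% to 5.52% and 14.7% to 17.5%. Both sets were picked by their direction in these same libraries, so only the size of these shares is informative. Both sets of called genes were large changes, with a median absolute log2 fold change of 1.56 for the rises and 1.73 for the falls and none under 0.612. More of the largest ones were falls: 52 genes fell and 12 rose by more than 4 on the log2 scale. In bulk RNA, fewer cells of a kind and less RNA per cell cannot be told apart.

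Without bRG 3, edgeR called 3090 of 16774 genes (18.4%), 1640 higher (9.78%) and 1450 lower (8.64%). Of the genes tested in both fits, 2522 were called in both, all with the same sign, 568 only without bRG 3 and 282 only with it. Among the genes called in both, the log2 fold change moved by a median of 0.158 when the library was left out. Among the other omissions, the largest loss came without bIP 1, where 988 genes were called higher and 944 lower.

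**Figure D2:**
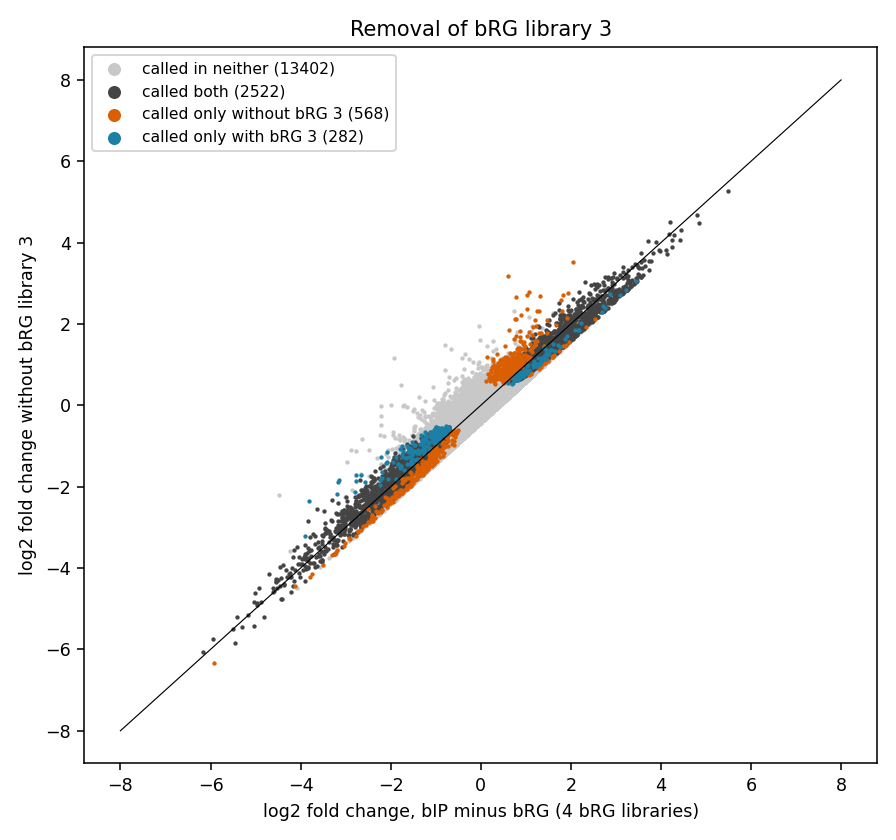
Log2 fold change of bIP over bRG with all 4 bRG libraries (x axis) and without bRG 3 (y axis), 1 point per gene tested in both fits; the line marks equality. The 2522 genes called in both fits lie along the line, and the 568 called only without bRG 3 and the 282 called only with it are shown in colours of their own.

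The 15 largest falls among well-measured genes (mean log2 CPM of at least 4, groups that do not overlap) were led by SLC1A3 and PAX6. SLC1A3, the glial glutamate transporter GLAST, measured 12.4, 14.1 and 18.6 CPM in bIP and 649, 601, 1253 and 1194 CPM in bRG (log2 fold change -5.94 ± 0.374 SE, adjusted p = 3.28e-08 by edgeR). The N libraries were at 12.3 and 13.2 CPM and the aRG libraries at 811 to 1363 CPM, so that bIP lay beside N and bRG beside aRG. SALL1, a zinc finger repressor, was at 8.51, 5.62 and 5.66 CPM in bIP and 210.4, 193, 237 and 296 CPM in bRG and fell by 5.16 on the log2 scale. S1PR1, the sphingosine 1-phosphate receptor, had 0.597, 4.03 and 4.94 CPM in bIP and 54.7, 51.7, 145 and 180.5 CPM in bRG. Its fall came to 5.02, and in bRG its libraries 3 and 4 were higher than 1 and 2.

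The others among the 15 were IL33 (-5.01), the nuclear cytokine; FAM111A (-4.98), a protease of replication forks; SFRP1 (-4.96), a secreted Wnt inhibitor; and LRP4 (-4.71), a receptor of the LDL receptor family. They also held PON2 (-4.61), a paraoxonase, the AP-2 factor TFAP2C (-4.58), the lipid phosphatase PLPP3 (-4.54), the metalloprotease ADAMTS6 (-4.54), the lipase LIPG (-4.53) and MKI67 (-4.52), the proliferation marker. The list closes with PAX6 and GLI3, given above. The 15 falls ran from -4.52 to -5.94, and each was called in all 7 fits that left out 1 library. In those fits IL33 reached -5.69 without bIP 3 and MKI67 -5.18 without bIP 2.

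The 15 largest rises were led by RELN, the secreted glycoprotein that Cajal-Retzius neurons release at the cortical surface. RELN measured 3050, 2047 and 1048 CPM in bIP and 40.2, 72, 23 and 48.2 CPM in bRG (log2 fold change 5.48 ± 0.482 SE, adjusted p = 7.89e-07 by edgeR). The bIP libraries differed among themselves, with bIP 1 highest and bIP 3 lowest, and all lay far above bRG, above aRG (21.8 to 71.7 CPM) and above the neurons (73.2 and 55 CPM). The LIM homeobox factor LHX5 had the same shape, at 129, 124 and 48.6 CPM in bIP, 4.96, 5.12, 8.61 and 3.33 CPM in bRG and 6.99 and 4.48 CPM in N (log2 fold change 4.19 over bRG). SVEP1, an extracellular matrix protein, was at 327, 270.3 and 126 CPM in bIP, 16.4, 22.1, 0.354 and 33.5 CPM in bRG and 10.3 and 11.3 CPM in N (log2 fold change 3.73 over bRG). In these 3 genes the bIP libraries stood above the other 10, bIP 3 always the lowest of them.

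The other large rises were high in N as well as in bIP. RELN and LHX5 were the 2 of the 15 called between bIP and N. The other 13 were not called there, SVEP1 among them in spite of its far lower level in N. With 2 N libraries, a missing call does not show that bIP and N were alike. GRIA2, a subunit of AMPA glutamate receptors, measured 923, 1107 and 1408 CPM in bIP and 117, 92.3, 69.7 and 47 CPM in bRG (log2 fold change 3.81 ± 0.404 SE, adjusted p = 4.25e-06 by edgeR), with 1614 and 1840 CPM in N. CACNA1E, an R-type calcium channel, stood at 426, 523 and 624 CPM in bIP and 29.1, 49.2, 25.1 and 32.4 CPM in bRG (log2 fold change 3.95). The calmodulin kinase subunit CAMK2B (4.29), the related pseudokinase CAMKV (4.25), the calcium-binding protein calretinin (CALB2, 4.79) and the synaptic adhesion protein SLITRK1 (3.97) rose as well. So did SPHKAP (4.25), an anchor of protein kinase A, the dynein adaptor BICDL1 (4.17), the dense-core vesicle protein PTPRN (3.89), the GTPase regulator ELMOD1 (3.77), the NALCN channel partner UNC79 (3.74) and the adhesion molecule DSCAML1 (3.61). Each of the 15 rises was called in all 7 fits that left out 1 library, and CALB2 reached 5.61 without bRG 2.

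**Figure D3:**
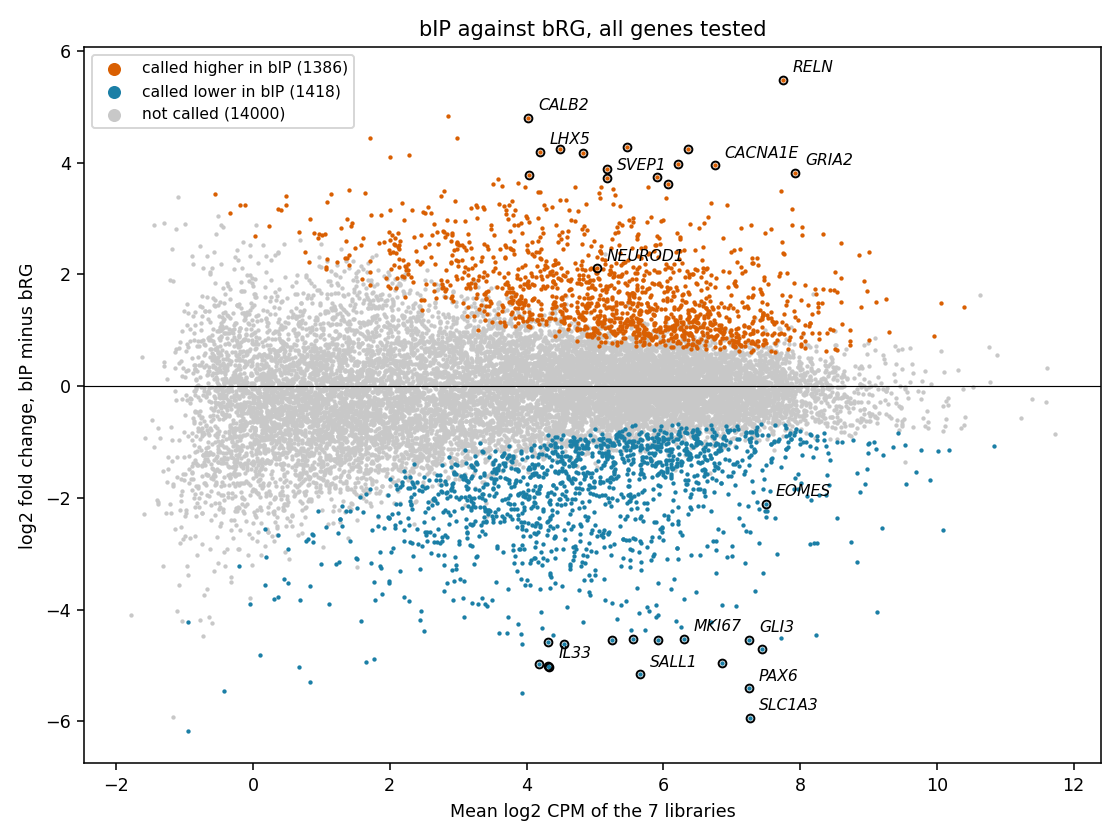
Log2 fold change of bIP over bRG (y axis) against the mean log2 CPM of the 7 libraries (x axis), 1 point per gene tested. Orange points are the 1386 genes called higher in bIP, blue points the 1418 called lower, and circles mark the 15 largest rises, the 15 largest falls, EOMES and NEUROD1; RELN is the highest circle and SLC1A3 the lowest.

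**Figure D4:**
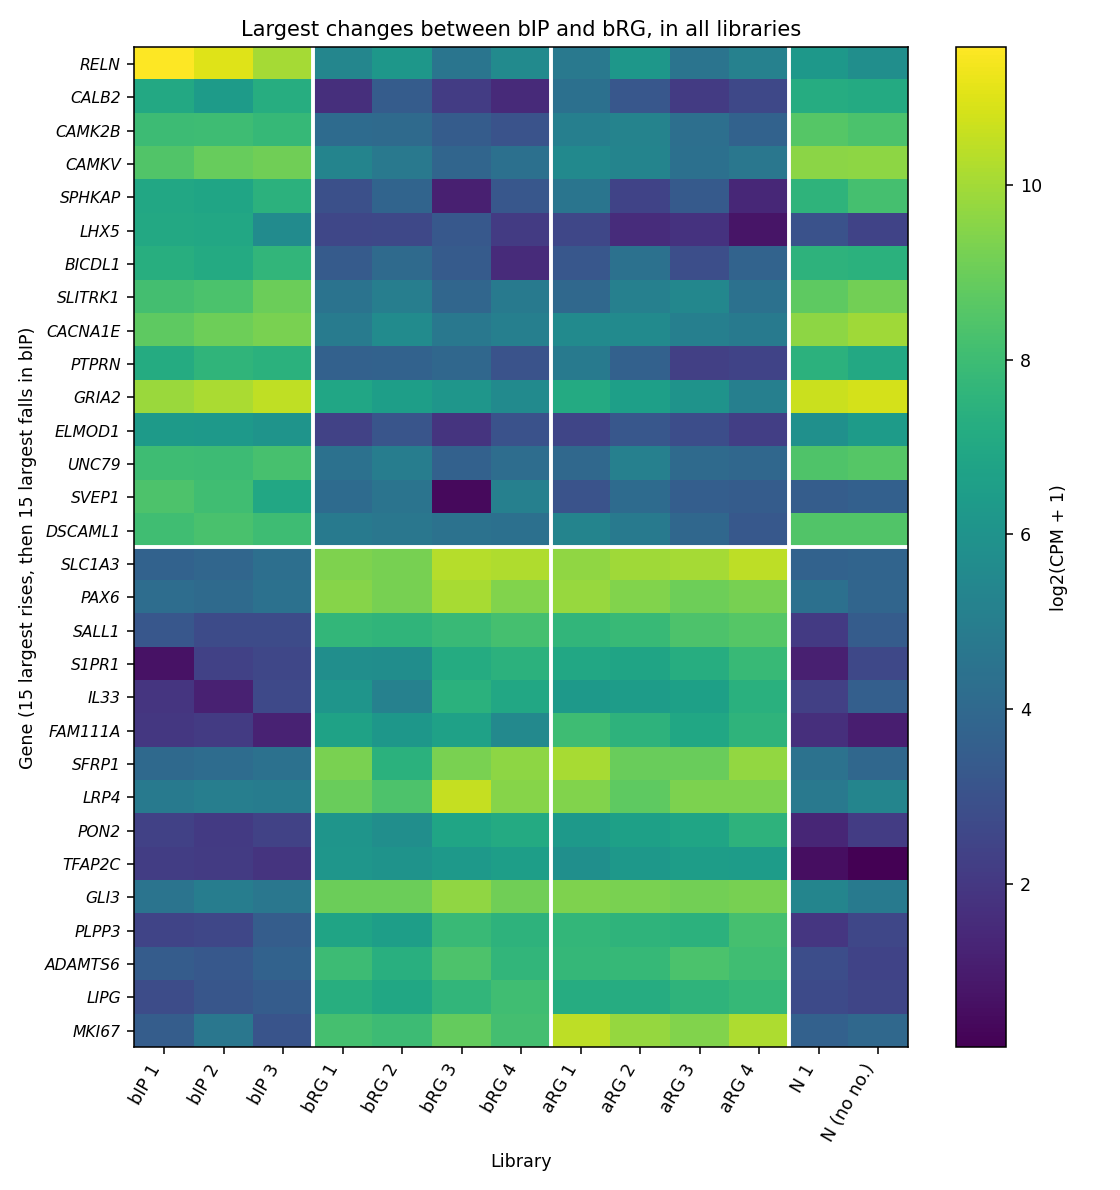
Level of the 15 largest rises and the 15 largest falls in all 13 libraries, as log2(CPM + 1), with bIP left of bRG, aRG and N. RELN, LHX5 and SVEP1 are bright in bIP alone, the other rises are bright in bIP and N, and the falls are bright in bRG and aRG.

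Radial glia transcription factors were lower in bIP almost throughout. Of 28 tested genes of this list (30 chosen) 22 fell (78.6%, against 8.44% of all genes tested) and 1 rose (3.57%, against 8.25%). The median log2 fold change was -2.49, and the counts were the same without bRG 3. SOX2, the stem cell factor, measured 17.9, 16.6 and 8.54 CPM in bIP and 367, 221, 329.7 and 212 CPM in bRG (log2 fold change -4.30 ± 0.463 SE, adjusted p = 4.95e-06 by edgeR). All 3 bIP libraries lay far below bRG, and bIP 3 was lowest. HES1, the Notch-driven repressor that keeps radial glia undifferentiated, was at 7.17, 2.02 and 2.43 CPM in bIP and 123, 70.3, 85 and 51.8 CPM in bRG (log2 fold change -4.45 ± 0.496 SE, adjusted p = 7.14e-06 by edgeR). Its value was -5.20 without bIP 1, the highest of the bIP libraries. HES5 (-3.02), the Wnt effector TCF7L1 (-4.20), the cortical selector LHX2 (-1.97), the bHLH inhibitor ID4 (-2.62) and the FGF-responsive factor ETV5 (-3.12, or -3.81 without bIP 1) fell too.

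The exception in this list was ID1, a target of BMP signalling. It measured 8.66, 18.9 and 6.92 CPM in bIP and 4.27, 1.56, 0.118 and 2.00 CPM in bRG and rose by a log2 fold change of 2.56 (edgeR adjusted p = 0.0118). Its aRG libraries lay at 17 to 22.4 CPM, and the call ended without bIP 2 (2.00, edgeR adjusted p = 0.091). SOX3, a close relative of SOX2 that the hg38 table does not hold, was read in the gorGor6 table, in which 7.44% of 38520 genes were called, 3.98% higher and 3.46% lower. There SOX3 stood at 0.145, 0.155 and 0.891 CPM in bIP and 11.2, 8.37, 17.3 and 10.9 CPM in bRG. It was lower in every bIP library than in any bRG library, with a log2 fold change of -4.82 (edgeR adjusted p = 0.000176).

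The scaffold and glial genes of radial glia followed the factors. Of 29 tested, 21 were lower (72.4%, against 8.44% of all genes tested) and 1 higher (3.45%, against 8.25%). Their median was -2.49, and 20 were lower and 1 higher without bRG 3. The intermediate filament gene VIM measured 40.5, 38 and 31.1 CPM in bIP and 250.5, 200.3, 317 and 231 CPM in bRG (log2 fold change -2.77 ± 0.294 SE, adjusted p = 4.25e-06 by edgeR). NES, the intermediate filament nestin, was at 2.99, 5.20 and 3.24 CPM in bIP and 47.7, 57.4, 32.2 and 43.8 CPM in bRG (-3.56 on the log2 scale). Both filament genes were lower in every bIP library than in any bRG library. The fatty acid binding protein FABP7 (-2.33), the apical membrane protein PROM1 (-4.17) and the proteoglycan brevican (BCAN, -4.02) fell as well. The decreases were not of 1 size: SLC1A3 fell by 5.94 and FABP7 by 2.33. SLC1A2, the second glial glutamate transporter, moved the other way, at 174, 306 and 204 CPM in bIP and 116, 120.4, 27.5 and 60.8 CPM in bRG (log2 fold change 1.49, edgeR adjusted p = 0.0288). In N it stood at 258 and 241 CPM, and its call ended without bIP 2, bIP 3 or bRG 4 (edgeR adjusted p = 0.144, 0.0525 and 0.0793).

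Markers of basal (outer) radial glia fell in 13 of 20 cases (65%, against 8.44% of all genes tested) and rose in none (against 8.25%). The median of these markers was -2.18, and 13 of them also fell without bRG 3. Their summed level was 998 to 1300 CPM in bIP, 2420 to 4380 CPM in bRG and 4480 to 6270 CPM in aRG. As a sum, the list was thus not particular to bRG among the radial glia libraries. HOPX, a homeodomain protein used as their marker, was at 8.66, 5.20 and 12.2 CPM in bIP and 56, 108, 41.3 and 57.7 CPM in bRG (log2 fold change -2.91 ± 0.442 SE, adjusted p = 0.000144 by edgeR). MOXD1, a monooxygenase-like protein, measured 4.33, 9.01 and 3.51 CPM in bIP and 74.5, 67.2, 58.1 and 70.1 CPM in bRG (log2 fold change -3.58 ± 0.387 SE, adjusted p = 5.22e-06 by edgeR). In neither gene did the groups overlap. The growth factor pleiotrophin (PTN, -3.14), the ligand BMP7 (-3.12), the matrix protein tenascin C (TNC, -2.83) and the secreted galectin-binding protein LGALS3BP (-3.10) fell too. FAM107A, an actin-associated protein that also marks these cells, was low in both groups, at 4.03, 2.33 and 5.21 CPM in bIP and 6.15, 13.5, 0 and 9.80 CPM in bRG. Its difference was not called (log2 fold change -0.93, 95% confidence interval -2.74 to 0.88), and its count in bRG 3 was 0.

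Of 30 tested genes of intermediate progenitor commitment 10 fell (33.3%, against 8.44% of all genes tested) and 2 rose (6.67%, against 8.25%), with a median of -0.67, and the counts were the same without bRG 3. Beside NEUROD1 the rise was SSTR2, a somatostatin receptor, at 148, 194 and 141 CPM in bIP and 116, 89.9, 72.4 and 61.5 CPM in bRG (log2 fold change 0.92, edgeR adjusted p = 0.0257). The groups did not overlap, but the call of SSTR2 ended without bIP 1, bIP 2 or bRG 4 (edgeR adjusted p = 0.0558, 0.138 and 0.0776). NEUROD4, a bHLH factor of newly committed cells, measured 2.54, 1.48 and 0.180 CPM in bIP and 4.61, 9.46, 25.8 and 14.3 CPM in bRG (log2 fold change -3.31 ± 0.727 SE, adjusted p = 0.00356 by edgeR), and reached -4.03 without bIP 1. The Notch ligand DLL1, which intermediate progenitors show to neighbouring radial glia, was at 63.8, 73.8 and 112 CPM in bIP and 242, 167, 189 and 359.8 CPM in bRG (log2 fold change -1.52). The matrix protein MFAP4 (-3.62) and the Ras activator RASGRP1 (-1.94) fell with EOMES. The fall of the antiproliferative gene BTG2 (-1.56) was no longer called without bIP 1, bIP 2, bRG 3 or bRG 4 (edgeR adjusted p of 0.0591 to 0.126).

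NEUROG2, the proneural factor that acts at the step into this lineage, measured 38.7, 77.8 and 22 CPM in bIP and 87.7, 78.1, 80.4 and 103 CPM in bRG. The 3 bIP libraries lay below the 4 bRG libraries, bIP 2 by less than 1 CPM, and the difference was not called (log2 fold change -0.92, 95% confidence interval -1.62 to -0.21, edgeR adjusted p = 0.0725). Without bIP 2 it was (-1.53, edgeR adjusted p = 0.0045). In both EOMES and NEUROG2 bIP 2 was the highest and bIP 3 the lowest of the bIP libraries.

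The later neuronal bHLH genes were higher. NEUROD2 measured 174, 191 and 87.9 CPM in bIP and 40.5, 30.6, 14 and 12.8 CPM in bRG (log2 fold change 2.63 ± 0.453 SE, adjusted p = 0.000486 by edgeR), and NEUROD6 641, 669.9 and 804 CPM in bIP and 178, 159, 333 and 187 CPM in bRG (log2 fold change 1.72 ± 0.255 SE, adjusted p = 0.000117 by edgeR). Both act in the differentiation of cortical glutamatergic neurons, and neither group overlapped the other. NEUROD6 was higher still in N, at 1455 and 1608 CPM. The zinc finger factor MYT1L, which represses non-neuronal genes in the mouse, rose (3.49), as did ID2 (2.40), and REST, the repressor of neuronal genes in progenitors, fell (-2.41). Of 25 tested genes of the bHLH list 9 rose (36%, against 8.25% of all genes tested) and 6 fell (24%, against 8.44%). Without bRG 3 the counts were 9 and 5.

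Among the factors of cortical projection neurons, 6 of 27 rose (22.2%, against 8.25% of all genes tested) and 7 fell (25.9%, against 8.44%). The median was 0.20. Without bRG 3, 9 rose and 7 fell. TBR1 rose (log2 fold change 2.92 ± 0.355 SE, adjusted p = 1.69e-05 by edgeR). BCL11B, the zinc finger factor of subcerebral neurons, was at 241, 182 and 151 CPM in bIP and 80.0, 61.5, 56.4 and 33.2 CPM in bRG (log2 fold change 1.73 ± 0.308 SE, adjusted p = 0.000653 by edgeR). BCL11B names the sorted neurons, and whether it also served to gate bIP or bRG is not stated in the sources read here. The LIM-only factor LMO3 rose (1.87, or 1.24 without bIP 3). FOXP1 (-2.35), FOXP2 (-2.33) and the homeobox factor CUX1 (-1.12) fell, although each is also a factor of neurons. The call of CUX1 was not made in the gorGor6 table (-0.81, edgeR adjusted p = 0.238). FEZF2, of deep-layer neurons, overlapped and was not called, at 170.1, 167 and 128 CPM in bIP and 169, 126, 146 and 90.3 CPM in bRG (log2 fold change 0.23, 95% confidence interval -0.38 to 0.84).

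Cajal-Retzius neurons are born early, secrete RELN and lie at the cortical surface. Of 24 tested genes of these neurons 12 rose (50%, against 8.25% of all genes tested) and none fell (against 8.44%). The median of these genes was 1.71, and 13 of them rose without bRG 3. Their summed level was 2310 to 4880 CPM in bIP and 449 to 555 CPM in bRG, and 1220 to 1310 CPM in N. RELN, at a mean of 2050 CPM in bIP, was a large part of that sum. Both were highest in bIP 1 and lowest in bIP 3 among the bIP libraries, an order of the sum that is not independent of RELN. TP73, a p53-family factor of these cells, measured 85, 93.2 and 35.1 CPM in bIP, 8.89, 10.5, 7.07 and 5.24 CPM in bRG and 4.17 and 0.840 CPM in N (log2 fold change 3.17 ± 0.463 SE, adjusted p = 0.000101 by edgeR over bRG). The gorGor6 table did not give this call for TP73 (0.67, edgeR adjusted p = 0.85). RELN, LHX5 and TP73 were also called higher in bIP than in N, by 5.00, 4.14 and 4.85 on the log2 scale (edgeR adjusted p = 0.00297, 0.0128 and 0.0035). TBR1 and CALB2 of the list did not separate bIP from N, with CALB2 at 129, 83.9 and 153 CPM in bIP and 149 and 137 CPM in N. The nuclear receptor NR2F2 was at 176, 149.8 and 54.9 CPM in bIP and 57.2, 30.6, 86.9 and 33.3 CPM in bRG with overlap, and its call ended without bIP 1, bIP 2, bRG 2 or bRG 4 (edgeR adjusted p of 0.064 to 0.17). EOMES was lowest in bIP 3, as were RELN, LHX5 and TP73, but also NEUROG2. The highest library differed: it was bIP 2 for EOMES and TP73 and bIP 1 for RELN and LHX5. Whether Cajal-Retzius neurons were present in the bIP libraries, and what share of the difference from bRG they made up, was not tested.

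Neuronal cytoskeleton genes were higher in bIP. Of 31 tested neurofilament, synuclein and pan-neuronal genes 21 rose (67.7%, against 8.25% of all genes tested) and none fell (against 8.44%). The counts were the same without bRG 3, and the median was 1.43. MAPT, the microtubule-binding protein tau, measured 506, 438 and 364 CPM in bIP and 60.5, 73.4, 69 and 43.3 CPM in bRG (log2 fold change 2.82 ± 0.291 SE, adjusted p = 3.44e-06 by edgeR). STMN2, a growth cone protein that controls microtubule turnover, was at 783, 649 and 809 CPM in bIP and 96.4, 140.2, 83.7 and 84 CPM in bRG (log2 fold change 2.89 ± 0.370 SE, adjusted p = 2.89e-05 by edgeR). Every bIP library lay above every bRG library in both. The growth cone protein GAP43 (1.84), beta-synuclein (SNCB, 2.91), the collapsin response mediator CRMP1 (1.74) and the surface glycoprotein THY1 (1.25) rose too. TUBB3, the usual neuronal tubulin, was low in all 7 libraries at 9.41, 12.3 and 12.8 CPM in bIP and 5.98, 10.6, 6.96 and 12.3 CPM in bRG, overlapped and was not called (log2 fold change 0.36, 95% confidence interval -0.69 to 1.41).

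Of 34 genes of microtubules and migration 16 rose (47.1%, against 8.25% of all genes tested) and 1 fell (2.94%, against 8.44%). Without bRG 3, 18 rose and 1 fell. The CDK5 activator CDK5R1 measured 188, 225 and 167 CPM in bIP and 48.5, 45.2, 40.2 and 58.1 CPM in bRG (log2 fold change 2.01 ± 0.218 SE, adjusted p = 5.48e-06 by edgeR). The reelin signal adaptor DAB1 (2.11), the kinesin KIF3C (1.82) and the tubulin TUBB2A (2.10) rose. Reads of TUBB2A and its close copy TUBB2B may be shared between them, and the smaller rise of TUBB2B (0.87) was not called without bIP 1, bIP 2 or bRG 1 (edgeR adjusted p = 0.0718, 0.0843 and 0.055). RND3, a small GTPase that acts in neuronal migration in the mouse, was the fall of this list, at 34.8, 46 and 37.5 CPM in bIP and 141, 99.8, 239.5 and 144 CPM in bRG (log2 fold change -1.98). In the gorGor6 table the migration gene DCX was at 458, 478 and 380.5 CPM in bIP and 148, 115, 96.5 and 108 CPM in bRG, with neurons at 612 and 548 CPM. It rose by 1.91 on the log2 scale (edgeR adjusted p = 6.13e-05).

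Axon guidance and growth genes moved both ways. Of 44, 21 were higher in bIP (47.7%, against 8.25% of all genes tested) and 9 lower (20.5%, against 8.44%). The counts were 22 and 9 without bRG 3, and 5 were lower without bIP 1. The semaphorin receptor PLXND1 measured 134, 128 and 195 CPM in bIP and 13.5, 14.8, 15.8 and 12.5 CPM in bRG (log2 fold change 3.43 ± 0.274 SE, adjusted p = 3.02e-07 by edgeR). DCC, the netrin receptor, was at 243, 318 and 292 CPM in bIP and 93.7, 123, 53 and 48.7 CPM in bRG (log2 fold change 1.84 ± 0.317 SE, adjusted p = 0.000494 by edgeR). The groups did not overlap, and bRG 3 and bRG 4 were the lowest in DCC. The adhesion molecules CNTN1 (3.36, or 2.73 without bIP 3), NCAM2 (2.37) and NRCAM (2.21) rose, and L1CAM rose in the gorGor6 table (2.99, edgeR adjusted p = 0.0001). Receptors of other cues fell, among them the semaphorin receptor NRP1 (-1.35), the ephrin receptor EPHA4 (-1.61) and the contactin CNTN4 (-1.86), and in the gorGor6 table the ligand EFNB1 (-2.05). The Slit receptor ROBO2 was at 159.8, 202 and 143 CPM in bIP and 277, 262, 384 and 277 CPM in bRG. Its fall of 0.83 was not called without bIP 1 or bIP 3 (edgeR adjusted p = 0.0776 and 0.0903) or in the gorGor6 table (0.116). CNTN2, a marker of young projection axons, was not called and overlapped (log2 fold change 0.72, 95% confidence interval -0.32 to 1.76).

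Genes of synaptic release rose in 21 of 34 cases (61.8%, against 8.25% of all genes tested) and fell in none (against 8.44%). The median was 1.62, 1 fell without bRG 2, and 20 rose without bRG 3. The SNARE protein SNAP25 measured 126, 115 and 229 CPM in bIP and 21.9, 32, 29.7 and 42.9 CPM in bRG (log2 fold change 2.31 ± 0.351 SE, adjusted p = 0.000149 by edgeR). SYT1, the calcium sensor of vesicle fusion, was at 579.6, 564 and 615 CPM in bIP and 262, 171, 192 and 128 CPM in bRG (log2 fold change 1.64 ± 0.245 SE, adjusted p = 0.000123 by edgeR). Neither gene overlapped between the groups, and bIP 3 was the highest library in both. The priming factor UNC13A (2.97) and the active zone protein piccolo (PCLO, 2.81) rose as well, as did the vesicle protein SYP in the gorGor6 table (2.31, edgeR adjusted p = 0.000149). The GABA-synthesis gene GAD1 was low and not called (log2 fold change 1.50, 95% confidence interval 0.24 to 2.76).

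Of 45 postsynaptic and receptor genes 25 rose (55.6%, against 8.25% of all genes tested) and 3 fell (6.67%, against 8.44%). The counts were 25 and 2 without bRG 3. Beside GRIA2, the NMDA receptor subunit GRIN2B was at 124, 78.8 and 137 CPM in bIP and 23.9, 43.8, 27.5 and 16.6 CPM in bRG (log2 fold change 2.02 ± 0.297 SE, adjusted p = 0.000109 by edgeR). GRIN2B was higher in every bIP library than in any bRG library. The kainate receptor subunit GRIK3 (2.87) and the scaffold SHANK2 (2.12) rose, and GRIA3 rose in the gorGor6 table (1.42, edgeR adjusted p = 0.0047). The falls were NRXN3 (-1.24), the glutamate receptor GRM3 (-1.51) and the neuroligin NLGN1 (-1.32). NRXN3, a presynaptic partner of the neuroligins, did not overlap between the groups, at 50.3, 55.4 and 60.5 CPM in bIP and 122, 86.4, 192 and 124 CPM in bRG. GRM3 and NLGN1 overlapped, and both calls ended without bIP 1 or bIP 2 (edgeR adjusted p of 0.0601 and 0.0806 for GRM3 and 0.099 and 0.108 for NLGN1). That of NLGN1 also ended without bRG 3 (0.0523). The postsynaptic scaffold gene DLG4 was not called (log2 fold change 0.92, 95% confidence interval -0.16 to 1.99).

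Voltage-gated channels rose in 25 of 47 cases (53.2%, against 8.25% of all genes tested) and fell in 2 (4.26%, against 8.44%). The counts were the same without bRG 3, and the median was 1.23. SCN2A, a sodium channel of young axons, measured 254, 204 and 299 CPM in bIP and 20.7, 32.8, 26.4 and 18 CPM in bRG (log2 fold change 3.37 ± 0.296 SE, adjusted p = 7.89e-07 by edgeR). SCN3A, a sodium channel prominent in the fetal cortex, was at 281, 341 and 275 CPM in bIP and 102, 139, 157 and 86.8 CPM in bRG, a smaller rise of 1.30 on the log2 scale. Neither overlapped between the groups. The auxiliary subunit SCN3B (3.25) and the calcium channels CACNA1A (2.29) and CACNA1C (2.47) rose. The falls were SCN1A (-1.20) and the glial potassium channel KCNJ10, at 5.67, 5.83 and 5.48 CPM in bIP and 25.1, 34.1, 43.9 and 64 CPM in bRG (log2 fold change -2.88).

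**Figure D5:**
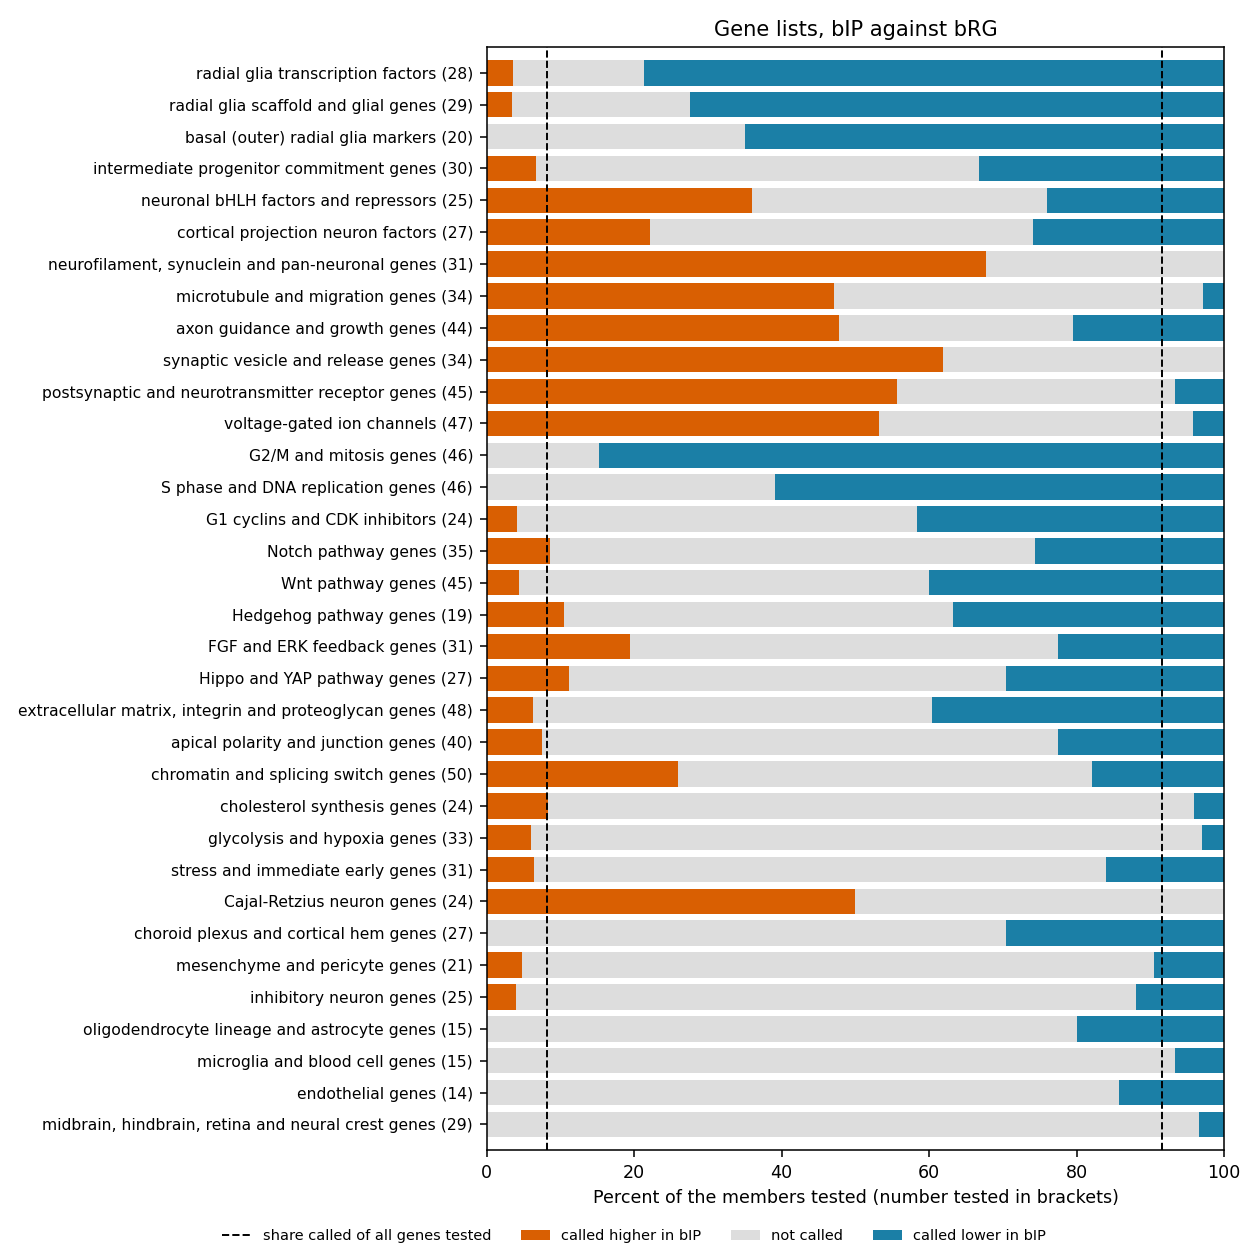
Share of the tested members of each of 34 gene lists that were called higher in bIP (orange, from the left), not called (grey) and called lower in bIP (blue, from the right), in percent. The dashed lines stand at 8.25% higher and 8.44% lower, the shares over all genes tested; neuronal lists have the widest orange bars, and the mitosis and radial glia lists the widest blue ones.

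Cell cycle genes were lower in bIP. Of 46 tested genes of G2/M and mitosis 39 fell (84.8%, against 8.44% of all genes tested) and none rose (against 8.25%). The median was -2.38, and 39 also fell without bRG 3. MKI67, which marks cycling cells, measured 10.3, 24.2 and 7.46 CPM in bIP, 295, 248, 459.8 and 281 CPM in bRG, 668 to 1404 CPM in aRG and 12 and 15 CPM in N (log2 fold change -4.52 ± 0.427 SE, adjusted p = 1.51e-06 by edgeR over bRG). The bRG libraries thus lay between aRG and the bIP and N libraries, and bIP 2 was the highest bIP library. TOP2A, the topoisomerase of chromosome condensation, was at 25.5, 21.1 and 13.1 CPM in bIP and 156, 146, 217 and 159 CPM in bRG (log2 fold change -3.09 ± 0.347 SE, adjusted p = 7.45e-06 by edgeR). The mitotic cyclin CCNB1 was at 4.78, 9.22 and 12.1 CPM in bIP and 56.7, 40.5, 72.5 and 86.4 CPM in bRG (-2.86 on the log2 scale). The groups did not overlap in either. The kinetochore genes NUF2 (-3.88) and CENPE (-3.61) and the spindle pole gene ASPM (-3.23) fell too, as did the chromokinesin KIF4A in the gorGor6 table (-3.51, edgeR adjusted p = 0.000168).

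S phase and DNA replication genes fell in 28 of 46 cases (60.9%, against 8.44% of all genes tested) and rose in none (against 8.25%). The median was -1.22, and 29 fell without bRG 3. RRM2, a subunit of ribonucleotide reductase, measured 10.8, 13.9 and 3.51 CPM in bIP and 93.1, 82.1, 59.1 and 74.4 CPM in bRG (log2 fold change -3.05 ± 0.407 SE, adjusted p = 4.09e-05 by edgeR). PCNA, the sliding clamp, was at 21.2, 21 and 21.6 CPM in bIP and 59.6, 42.9, 85.5 and 58.9 CPM in bRG (log2 fold change -1.54 ± 0.351 SE, adjusted p = 0.00487 by edgeR), a smaller fall. The replication fork genes CDC45 (-3.55), CLSPN (-3.47), POLE2 (-2.66) and MCM3 (-2.81) fell. The helicase subunit MCM2 fell by 1.96, but bRG 3 lay below bIP 3, and the call ended without bIP 1 or bIP 2 (edgeR adjusted p = 0.0528 and 0.052).

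Of 24 tested G1 cyclins and CDK inhibitors 1 rose (4.17%, against 8.25% of all genes tested) and 10 fell (41.7%, against 8.44%). The counts were 1 and 8 without bRG 3, and 6 fell without bIP 1 or bIP 2. The rise was CDKN2D, the p19 inhibitor of CDK4 and CDK6 in postmitotic neurons, at 52.5, 31.9 and 40.4 CPM in bIP and 7.69, 6.45, 0.354 and 3.62 CPM in bRG (log2 fold change 3.21 ± 0.554 SE, adjusted p = 0.000485 by edgeR). CCND1, the G1 cyclin, was at 11.8, 18.3 and 13.8 CPM in bIP and 35, 33.8, 37.5 and 33.6 CPM in bRG (log2 fold change -1.25 ± 0.273 SE, adjusted p = 0.00335 by edgeR). The 4 bRG libraries were close to each other in CCND1, and no bIP library reached them. CDK6 (-2.71), CDK2 (-2.17), the pocket protein RBL1 (-1.57) and E2F3 (-1.38) fell. The inhibitor p27 (CDKN1B), which rises at cell cycle exit in many tissues, was at 28.8, 29.3 and 16.9 CPM in bIP and 27, 25.2, 50.9 and 25.5 CPM in bRG, overlapped and was not called (log2 fold change -0.37, 95% confidence interval -1.09 to 0.36).

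In the Notch pathway 9 of 35 genes fell (25.7%, against 8.44% of all genes tested) and 3 rose (8.57%, against 8.25%). The median was -0.84, and 12 fell and 3 rose without bRG 3. Among the receptors, NOTCH1 measured 36.4, 57.7 and 32.3 CPM in bIP and 296, 275, 246 and 406 CPM in bRG (log2 fold change -2.86 ± 0.284 SE, adjusted p = 2.46e-06 by edgeR). NOTCH3 was at 16.7, 22.1 and 11.2 CPM in bIP and 240.1, 199, 175 and 206 CPM in bRG (log2 fold change -3.62 ± 0.284 SE, adjusted p = 2.74e-07 by edgeR), and NOTCH2 fell by 2.49. No bIP library reached the lowest bRG library in any of the 3. The targets HES1 and HES5 and the ligand DLL1 fell, as given above. The ligand JAG2 rose, at 220.5, 243 and 237 CPM in bIP and 47.7, 61.2, 44.3 and 41.1 CPM in bRG (log2 fold change 2.27 ± 0.254 SE, adjusted p = 7.39e-06 by edgeR), and so did the neuronal ligand DNER (1.23) and the modulator DTX1 (1.69).

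Wnt pathway genes fell in 18 of 45 cases (40%, against 8.44% of all genes tested) and rose in 2 (4.44%, against 8.25%). The median was -0.94. Without bRG 3, 18 fell and 3 rose, and no rise was called without bIP 2. Among receptors, FZD8 measured 3.43, 5.30 and 2.61 CPM in bIP and 94, 57.3, 51.4 and 46.6 CPM in bRG (log2 fold change -4.04 ± 0.530 SE, adjusted p = 3.53e-05 by edgeR), and FZD2 fell by 2.80. The nuclear effector LEF1 was at 15.8, 14.7 and 17.4 CPM in bIP and 36.7, 29.1, 99.5 and 80.9 CPM in bRG (log2 fold change -1.95 ± 0.432 SE, adjusted p = 0.00389 by edgeR), with bRG 3 and bRG 4 higher than bRG 1 and bRG 2. The inhibitor SFRP1 was at 15.4, 17.3 and 19.9 CPM in bIP and 611, 175, 616 and 786 CPM in bRG, with bRG 2 lowest in its group. AXIN2, a direct target of the canonical pathway, was at 27.3, 36.4 and 28.2 CPM in bIP and 26, 25.5, 26.4 and 39.3 CPM in bRG, overlapped and was not called (log2 fold change 0.06, 95% confidence interval -0.50 to 0.63). The rises were the neuronal APC relative APC2 (1.26) and the inhibitor NKD2 (2.09). The call of APC2 ended without bIP 1, bIP 2, bRG 1, bRG 3 or bRG 4 (edgeR adjusted p of 0.0593 to 0.23), and that of NKD2 without bIP 2 (1.40 on the log2 scale, edgeR adjusted p = 0.191).

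Of 19 Hedgehog pathway genes 7 fell (36.8%, against 8.44% of all genes tested) and 2 rose (10.5%, against 8.25%). Without bRG 3, 8 fell and 2 rose. The co-receptor BOC measured 85.7, 85.6 and 105 CPM in bIP and 723, 605, 602 and 692 CPM in bRG (log2 fold change -2.83 ± 0.223 SE, adjusted p = 2.75e-07 by edgeR). The signal transducer SMO was at 23.1, 20.9 and 14.3 CPM in bIP and 102, 69.7, 107 and 79.4 CPM in bRG (log2 fold change -2.21 ± 0.293 SE, adjusted p = 3.87e-05 by edgeR), and the co-receptor GAS1 fell (-3.12). PTCH1, the receptor gene that the pathway itself induces, was at 36, 45.1 and 18.2 CPM in bIP and 49.9, 61.3, 36.2 and 53.5 CPM in bRG, overlapped and was not called (log2 fold change -0.60, 95% confidence interval -1.27 to 0.06). DISP2, a relative of the ligand-releasing protein dispatched, rose (2.95).

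FGF and ERK genes moved both ways: 6 of 31 rose (19.4%, against 8.25% of all genes tested) and 7 fell (22.6%, against 8.44%). Without bRG 3, 7 rose and 8 fell. The receptor FGFR3 measured 30.0, 27.5 and 27.4 CPM in bIP and 266, 155, 216 and 283 CPM in bRG (log2 fold change -3.02 ± 0.251 SE, adjusted p = 4.8e-07 by edgeR), and FGFR2 was at 26.1, 36 and 43.9 CPM in bIP and 230.4, 160.4, 403 and 292 CPM in bRG (-2.94 on the log2 scale). Both receptors were lower in every bIP library than in any bRG library. FGFBP3, which releases FGFs from the matrix, fell (-3.91). FLRT2, a transmembrane protein that binds FGF receptors and guides axons, rose (2.41). The ligand FGF9 was at 62.3, 71.2 and 42.9 CPM in bIP and 15.7, 29.9, 9.43 and 10.5 CPM in bRG (log2 fold change 1.84), and its call ended without bIP 2 (edgeR adjusted p = 0.0536). Without bIP 2 only 1 gene of this list was called higher.

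In the Hippo pathway 8 of 27 genes fell (29.6%, against 8.44% of all genes tested) and 3 rose (11.1%, against 8.25%). Without bRG 3, 7 fell and 3 rose. The falls numbered 5 without bIP 2 or bIP 3, and the rises 1 without bIP 1 or bIP 2. The coactivator YAP1 measured 4.18, 7.95 and 4.94 CPM in bIP and 41.7, 38.4, 75.8 and 37.6 CPM in bRG (log2 fold change -3.08 ± 0.358 SE, adjusted p = 1.1e-05 by edgeR). Its DNA-binding partner TEAD3 (-2.20), the upstream kinase STK3 (-2.34) and the LATS regulator AJUBA (-2.62) fell, and the atypical cadherin FAT3 rose (1.74). The YAP1 target CCN1 was low and overlapped, and its fall of 1.83 was not called in 5 of the 7 fits that left out 1 library (edgeR adjusted p up to 0.185, without bIP 2) or in the gorGor6 table (0.0924).

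Matrix, integrin and proteoglycan genes fell in 19 of 48 cases (39.6%, against 8.44% of all genes tested) and rose in 3 (6.25%, against 8.25%). The median was -0.54, and 18 fell and 5 rose without bRG 3. The basement membrane laminin chain LAMA1 was at 15.1, 15.9 and 14.4 CPM in bIP and 204, 124, 212 and 157 CPM in bRG (log2 fold change -3.52 ± 0.278 SE, adjusted p = 2.75e-07 by edgeR). LAMB2, another laminin chain, measured 15.5, 14.9 and 12.7 CPM in bIP and 120.1, 119.9, 76.5 and 116 CPM in bRG (log2 fold change -2.91 ± 0.260 SE, adjusted p = 8.68e-07 by edgeR). Neither overlapped, and bRG 3 was lowest of the bRG libraries in LAMB2. The surface proteoglycan GPC6 fell (-2.17). In the gorGor6 table the collagen IV chains COL4A5 and COL4A6 fell as well: COL4A5 stood at 12.1, 11.4 and 17.9 CPM in bIP and 297, 192, 693 and 481 CPM in bRG (-4.91 on the log2 scale, edgeR adjusted p = 1.31e-06). COL4A6 fell by 3.78 and the glypican GPC4 by 3.69. The syndecan SDC3 (1.98) and tenascin R (TNR, 2.42), matrix genes of neurons, rose, and the third rise was the integrin ITGA3 (1.82), whose call ended without bIP 2 (edgeR adjusted p = 0.0573). The integrin chain ITGB1 was not called (log2 fold change -1.11, 95% confidence interval -2.00 to -0.21), and without bRG 2 it was (-1.34, edgeR adjusted p = 0.0281).

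Apical polarity and junction genes fell in 9 of 40 cases (22.5%, against 8.44% of all genes tested) and rose in 3 (7.5%, against 8.25%). The median was -0.19, against -0.09 over all genes tested. Without bRG 3, 9 fell and 6 rose. CRB1, the apical determinant, measured 7.91, 10.9 and 15.7 CPM in bIP and 152, 125, 240.1 and 205 CPM in bRG (log2 fold change -3.96 ± 0.341 SE, adjusted p = 6.66e-07 by edgeR), and the planar polarity cadherin CELSR1 was at 24, 25.4 and 15.1 CPM in bIP and 154, 137, 152 and 135 CPM in bRG (log2 fold change -2.75 ± 0.257 SE, adjusted p = 1.33e-06 by edgeR). All bIP libraries lay below all bRG libraries in both. The nectins went apart, NECTIN3 down (-2.18) and NECTIN1 up (1.34). The small GTPase CDC42 (1.38) and the scaffold LIN7A (2.47) rose. CDH2, N-cadherin, was at 396, 413 and 356 CPM in bIP and 528, 345, 789.5 and 637 CPM in bRG, overlapped and was not called (log2 fold change -0.57, 95% confidence interval -1.11 to -0.02), and without bRG 2 it was (-0.74, edgeR adjusted p = 0.0315). PARD3 fell by 1.25, a call that ended in 6 of the 7 fits that left out 1 library, with edgeR adjusted p up to 0.19 without bIP 3, and in the gorGor6 table (0.145).

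Of 50 chromatin and splicing genes that switch between progenitors and neurons, 13 rose (26%, against 8.25% of all genes tested). Falls numbered 9 (18%, against 8.44%), and the counts were 14 and 8 without bRG 3. ACTL6B, the neuron-specific subunit of the BAF remodelling complex, measured 163, 237 and 166 CPM in bIP and 41.9, 46.2, 17.7 and 12.4 CPM in bRG (log2 fold change 2.68 ± 0.458 SE, adjusted p = 0.000458 by edgeR). DPF1, a second neuronal subunit, was at 118, 133 and 109.6 CPM in bIP and 29.6, 40.8, 14.6 and 24.1 CPM in bRG (log2 fold change 2.14 ± 0.329 SE, adjusted p = 0.000166 by edgeR), and SS18, a subunit of the progenitor complex, fell (-1.57). Among splicing genes SRRM3, of neuronal microexons, rose (2.68), as did RBFOX2 (1.41). PTBP1, the splicing repressor of progenitors, was at 90.8, 94.6 and 72.1 CPM in bIP and 109, 112, 100.4 and 97.4 CPM in bRG. Its groups did not overlap, but the difference was small and not called (log2 fold change -0.29, 95% confidence interval -0.73 to 0.15). The demethylase TET1 (-1.70) and the RNA-binding protein IGF2BP3 (-1.25) fell.

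In cholesterol synthesis 2 of 24 genes rose (8.33%) and 1 fell (4.17%). In glycolysis and hypoxia 2 of 33 rose (6.06%) and 1 fell (3.03%). Over all genes tested 8.25% rose and 8.44% fell, so the counts of both lists were near or under these shares. In stress and immediate early genes 2 of 31 rose (6.45%) and 5 fell (16.1%, against 8.44% of all genes tested). The 5 falls became 2 without bIP 1 or bIP 2 and 3 without bIP 3, bRG 1, bRG 3 or bRG 4, and the 1 fall in glycolysis and hypoxia became 2 without bRG 1 and 3 without bRG 2. The cholesterol enzymes MVD (1.69) and LSS (0.84) rose. The glucose transporter SLC2A1 was at 52, 82.5 and 98.9 CPM in bIP and 197, 198, 494 and 415 CPM in bRG (log2 fold change -2.07 ± 0.387 SE, adjusted p = 0.000997 by edgeR), and the enzymes HK1 (1.19) and GPI (1.04) rose. Of the activity-regulated genes ARC (2.99) and NR4A3 (2.06) rose, while FOS (log2 fold change 0.68, 95% confidence interval -0.26 to 1.63) and JUN (0.41, interval -0.48 to 1.30) were not called. The chaperone HSPB1 (-1.38) and the unfolded protein response factor XBP1 (-1.40) fell.

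Markers of other cell types gave counts in both groups, which does not by itself show that such cells were present. Over all genes tested 8.25% rose and 8.44% fell. The shares that fell were 3.45% (midbrain and other regions), 6.67% (microglia and blood), 9.52% (mesenchyme) and 12% (inhibitory neurons). They were 14.3% for endothelial genes, 20% for oligodendrocytes and astrocytes and 29.6% for choroid plexus. Rises made up 4.76% of the mesenchyme list and 4% of the inhibitory neuron list. Choroid plexus and cortical hem genes fell in 8 of 27 cases and rose in none, with and without bRG 3 (5 falls without bIP 1), and their summed level was 491 to 649 CPM in bIP and 867 to 2380 CPM in bRG. TTR, the transthyretin gene of choroid plexus, was at 66.9, 146 and 245 CPM in bIP and 1177, 170.4, 684 and 479 CPM in bRG, with overlap, and its call ended without bIP 1, bIP 2 or bRG 1 (edgeR adjusted p = 0.156, 0.12 and 0.113). OTX2, a factor of choroid plexus, was at 5.52, 3.60 and 6.02 CPM in bIP and 23.8, 17.9, 16.9 and 12.1 CPM in bRG (log2 fold change -1.80 ± 0.416 SE, adjusted p = 0.00528 by edgeR). Mesenchyme and pericyte genes summed to 251 to 369 CPM in bIP and 305 to 504 CPM in bRG, with 1 of 21 higher and 2 lower. Inhibitory neuron genes summed to 148 to 277 CPM in bIP and 211 to 267 CPM in bRG, with 1 of 25 higher and 3 lower. NR2F2, a nuclear receptor and the 1 that rose (log2 fold change 1.29 ± 0.386 SE, adjusted p = 0.028 by edgeR), was not called without bIP 1, bIP 2, bRG 2 or bRG 4. Microglia and blood cell genes (1 of 15 lower, none without bIP 2) and endothelial genes (2 of 14 lower, none without bIP 1 or bIP 2) summed to 51.9 to 77.3 and 54.8 to 61.8 CPM in bIP and to 86.3 to 97 and 49.5 to 130 CPM in bRG. Oligodendrocyte and astrocyte genes fell in 3 of 15 cases (1 without bIP 1, bIP 2, bIP 3 or bRG 1), with sums of 128 to 141 CPM in bIP and 208 to 316 CPM in bRG. Midbrain, hindbrain, retina and neural crest genes fell in 1 of 29 cases (2 without bRG 3), LHX2, which the cortex also expresses, with sums of 132 to 277 CPM in bIP and 471 to 753 CPM in bRG. No defining marker of these lists was at 0 in all 7 libraries, and EN1, HOXB2 and SIX6 were each at 0 in 1 bRG library. Their means were low, at 0.255, 0.281 and 0.554 CPM in bIP and 0.128, 0.557 and 3.49 CPM in bRG. The lists of choroid plexus, of oligodendrocytes and astrocytes, of microglia and blood cells, and of midbrain and other regions had lower sums in every bIP library than in any bRG library, and the part of such cells in the differences between bIP and bRG was not tested.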

How the data were processed

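RNA was measured in 13 sorted libraries, 3 of bIP and 4 of bRG among them, and the authors deposited 2 tables of raw, unnormalized read counts by gene symbol. The first, the main one here, lists 18137 genes (build hg38, human), and the other 60583 named genes on gorGor6, a gorilla build that no source but the table's own name gives. STAR and hg38 are named, without role or version, per the submitters' processing notes. Counter, annotation and strand setting are not given in these sources, so overlapping genes and close paralogs are uncertain. A row with a blank name held 0.0035% to 0.0077% of gorGor6 counts and was left out. The number of neuron column N2 matches no neuron sample, and it entered as N without a replicate number. Smart-seq2 reads carry no molecular identifiers.

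Counts of all 13 libraries were fitted with a mean per population in edgeR 4.0.16 (R 4.3.3; TMM, filterByExpr with a minimum count of 10, quasi-likelihood F-test, Benjamini-Hochberg over all 16804 genes tested). Standard errors are the fold change over the root of its F statistic, and 95% intervals from the total degrees of freedom. Genes absent from the hg38 table, 26 of the 1034 listed genes, were fitted in the gorGor6 table. Of these 25 were tested, 6 rose and 10 fell. Over all genes tested there, 3.98% rose and 3.46% fell. Scripts were tested on simulated data. Within bIP and within bRG, any 2 libraries had a chi-square of 10.6 to 92.4 per degree of freedom, and no duplicate was found. The aRG and N libraries were not compared in this way. The alternatives tried were DESeq2 1.42.0, its size factors, limma 3.58.1 (voom with quality weights), no filter, the gorGor6 table, a fit of the 7 libraries alone, a replicate block and the omission of each library. The fit of the 7 libraries without bRG 3, and the omissions in the gorGor6 table, were chosen after seeing the data.

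The groups and the 34 gene lists were chosen with earlier results of these data known, so the counts are descriptions. The text names the 4 markers, the 15 largest rises and falls (called, mean log2 CPM of at least 4, a symbol in the RefSeq gorilla table, no overlap) and, from each list, its key genes and up to 4 called members per direction with the smallest p. EN1, HOXB2 and the genes read in the gorGor6 table were chosen after their values were seen, and some genes that this rule allows are left to the counts or not reported here. No genome sequence was used, so no positions are given.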

Additional observations from a re-analysis of the deposited data

Results flagged for a closer look

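Among the 4 bRG libraries, 10 of the 199 genes named from the hg38 table had 1 library farther from the others than Dixon's 95% criterion allows. Chance flags about 1 in 20 groups, so 10 of 199 is near what chance alone would flag. In 7 of the 10 the library was bRG 3, the one that stood apart. It was the highest in GLI3 (821 CPM), NEUROD6 (333 CPM), ROBO2 (384 CPM), YAP1 (75.8 CPM) and CDKN1B (50.9 CPM), and the lowest in LAMB2 (76.5 CPM) and CNTN1 (4.60 CPM). In the other 3 it was bRG 4, the highest in CDK2 (32.3 CPM) and AXIN2 (39.3 CPM) and the lowest in RBFOX2 (234 CPM). CDKN1B and AXIN2 were not called with or without that library, and the other 8 kept their call and direction without it. Without bRG 3 the log2 fold changes were -4.35 for GLI3, 2.01 for NEUROD6, -0.69 for ROBO2, -2.77 for YAP1, -3.05 for LAMB2, 3.07 for CNTN1 and -0.06 for CDKN1B. Without bRG 4 they were -1.83 for CDK2, 1.29 for RBFOX2 and 0.24 for AXIN2.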

How the results depend on the processing

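Of the 184 named genes called from the hg38 table, none changed direction under any alternative, and 167 were called in all 7 fits that left out 1 library. DESeq2, its size factors in edgeR and the absence of a filter called all 184. Limma called 181, the fit of the 7 libraries alone 178, and gorGor6 counts 171 of the 179 tested there. Over the omissions of 1 library the count of calls ran from 1932 to 3090, of rises from 960 to 1640, of falls from 944 to 1594 and of called list members from 369 to 458, against 445 of these with all libraries. The falls of 944 without bIP 1 lay more than 1.5 times under the 1418 of all libraries. Each omission leaves 1 library fewer, and the 1594 falls were those without bRG 2. The reason for the drop was not tested. Other settings gave 2166 calls (7 libraries alone) to 3794 (limma). AXIN2, not called, had a log2 fold change between -0.077 (without bIP 2) and 0.24 (without bRG 4) over the omissions. A fit with the replicate number as a block called 3129 genes, 1631 higher and 1498 lower, and kept 183 of the 184 calls. Same-numbered bIP and bRG libraries correlated in their deviations by 0.074, 0.033 and 0.117, and bIP 3 correlated best with bRG 4 (0.131), so the numbers were not taken as pairs. A weak split of libraries 1 and 2 from 3 and 4 was visible in these small correlations. bIP 1 and bIP 2 correlated by 0.033 to 0.139 with bRG 1 and bRG 2, and by -0.098 to -0.028 with bRG 3 and bRG 4. bIP 3 was at -0.173 and -0.159 with bRG 1 and bRG 2. Deviations from a group mean cancel within the group, so the values of bIP 3 mirror those of bIP 1 and bIP 2 and are not separate evidence. The main fit holds no term for this split, which the replicate block takes up, and its source was not tested. Total counts of 5464721 to 10812093 and 3 against 4 libraries limit what can be called: the smallest called log2 fold change was 0.612, and uncalled genes are given with their intervals. Intervals cover the spread of these libraries only.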
